A study of Rattus norvegicus with 60 samples.

Results

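Gene expression after 21 days (HS21) and after 7 days (HS7) on a diet with 4.0% NaCl was compared in the kidney outer medulla of the Dahl salt-sensitive rat (SS). The comparison used 10 of the 60 RNA libraries of the series, 5 at HS21 and 5 at HS7, chosen by their titles. All 10 came from wild-type SS outer medulla, and the labels state neither sex nor age. The series also holds SS rats under control conditions (LS), a NOX4 knockout line on the same background (NOX4), and kidney cortex of both strains, with 5 libraries in each of 12 groups. The salt content of the control diet is not given in the sources used here. Nothing in the labels says how many rats a library came from, so p-values measure the spread between these libraries.

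The SS rat is an inbred line that becomes hypertensive and develops kidney injury on a high-salt diet. Its outer medulla holds the thick ascending limb, which takes up NaCl through the Slc12a1 cotransporter, the straight part of the proximal tubule, collecting ducts and bundles of small vessels. The first week on salt is known for rising pressure and the third for established hypertension with protein casts, inflammation and fibrosis.

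Library totals were 11.5 to 22.1 M counts at HS7 and 17.5 to 26.3 M at HS21. At an equal depth of 10 M counts, HS7 replicates 1, 3 and 4 held 16119, 14911 and 15762 genes, against 18385 and 18131 in HS7 replicates 2 and 5 and 17955 to 18074 in the HS21 libraries. A second split of libraries ran through the whole series. A window of chromosome 14 (46329996 to 46657975 in the deposited coordinates, whose build is not given in the sources used here) took 1192 to 2167 counts in each 1 M of the library total (CPM) in the 10 SS LS libraries of both tissues and 1202 to 1825 in HS7 outer medulla replicates 1 to 4. It took 226 in HS7 outer medulla replicate 5, 141 to 333 in the 5 HS21 outer medulla libraries and 146 to 626 in the 30 NOX4 libraries. In SS cortex it took 127 to 301 at HS21 and 415 in HS7 replicate 3. The other HS7 cortex libraries were at 916 to 2108. Zbtb20 split the libraries the same way, at 51.9 to 103 CPM of the library total in the high SS LS and HS7 outer medulla libraries, 13.8 in HS7 replicate 5 and 12.3 to 18.9 at HS21. HS7 outer medulla replicate 5 thus sat with the HS21 and NOX4 libraries, and HS7 outer medulla replicates 1 to 4 with the LS libraries. Of the 10 compared libraries, only HS7 replicate 5 lay on the other side of the split from the rest of its group. For the comparison as a whole, 14 further days on salt and the split of libraries therefore cannot be told apart.

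**Figure D1:**
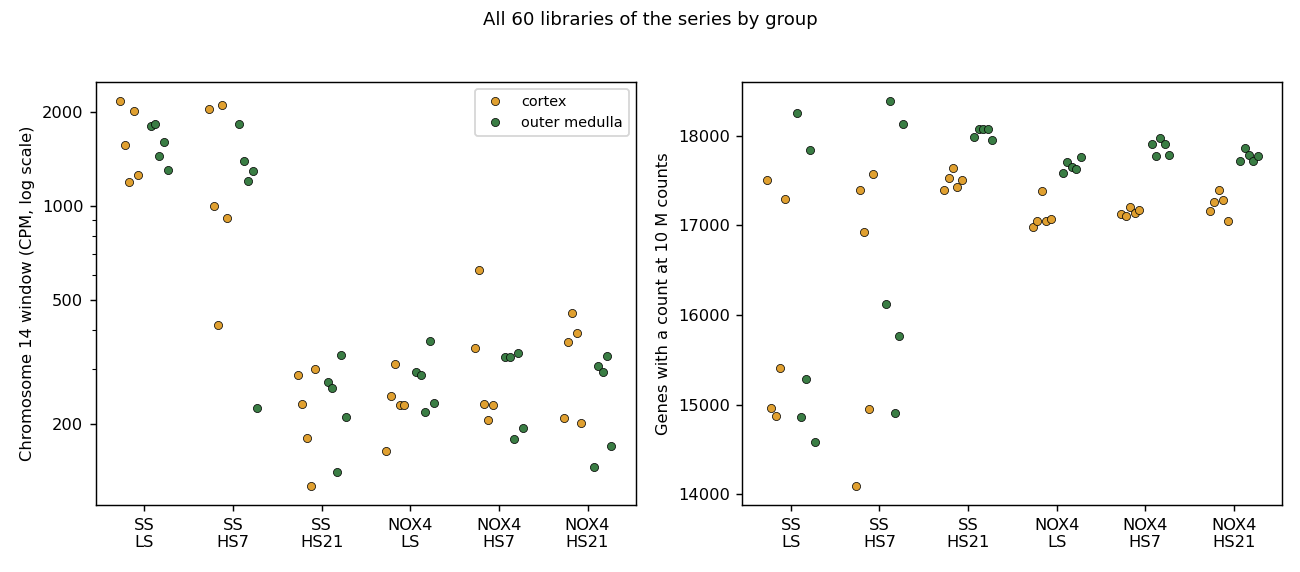
Each point is 1 of the 60 libraries, by strain and diet (x axis) and tissue (colour). The left panel shows the chromosome 14 window in CPM of the library total on a log axis, and the right panel the genes with a count at 10 M counts. HS7 outer medulla replicate 5 (226 CPM) lies among the HS21 libraries on the left, and 3 HS7 outer medulla libraries hold 14911 to 16119 genes on the right.

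The labelled tissue was checked by deposited FPKM, which is scaled by gene length. Umod and Slc12a1, markers of the thick ascending limb, had medians of 3315 and 699 FPKM over the 10 libraries. The straight proximal tubule markers Slc7a13 and Slc3a1 had medians of 546 and 481 FPKM, and Aqp2 of the collecting duct 239 FPKM. HS7 replicate 3 departed from the others, with Slc34a1 of the early proximal tubule at 1253 FPKM against a median of 111 and Slc12a1 at 302. Results on tubule segments are therefore given with and without it. The knockout's target was low in this tissue: Nox4 was at 6.46, 9.92, 111, 38.6 and 12.8 CPM in HS7 replicates 1 to 5 and at 12.3, 7.53, 9.53, 20.7 and 21.7 CPM at HS21. The high HS7 values were again replicates 3 and 4, and the log2 difference was -1.32 (SE 0.59, adjusted p = 0.299, edgeR) with all libraries and -0.24 without replicate 3.

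Of 15799 genes tested with edgeR, 103 (0.652%) had an adjusted p under 0.05. Of these, 66 (0.418%) were higher and 37 (0.234%) lower at HS21. At an unadjusted p under 0.05 there were 2267 genes, and the median log2 difference of all genes was -0.00. The groups did not overlap for 69 of the 103 genes, 55 higher and 14 lower. In all, 576 tested genes (3.65%) had such separate groups, 387 (2.45%) above and 189 (1.2%) below. Calls remained for 14 genes whichever of the 10 libraries was left out, 7 higher and 7 lower. The number of calls ran from 16 (without HS7 replicate 4) to 314 (without HS7 replicate 5). It was 32 without HS7 replicate 2, and 17, 21, 28 and 28 without HS21 replicates 1, 2, 3 and 4. It was 0 when the compared groups were fitted alone (1737 genes at an unadjusted p under 0.05) and 1, Nhp2 (lower, named after its call), without the low-complexity libraries, which left 2 libraries at HS7 (1506 genes). With the level of the chromosome 14 window as a covariate it was also 0, with 394 genes at an unadjusted p under 0.05, and 100 of the 103 kept their direction. That level nearly followed the 2 compared groups, apart from HS7 replicate 5, so this fit could not tell the split of libraries from days on salt.

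**Figure D2:**
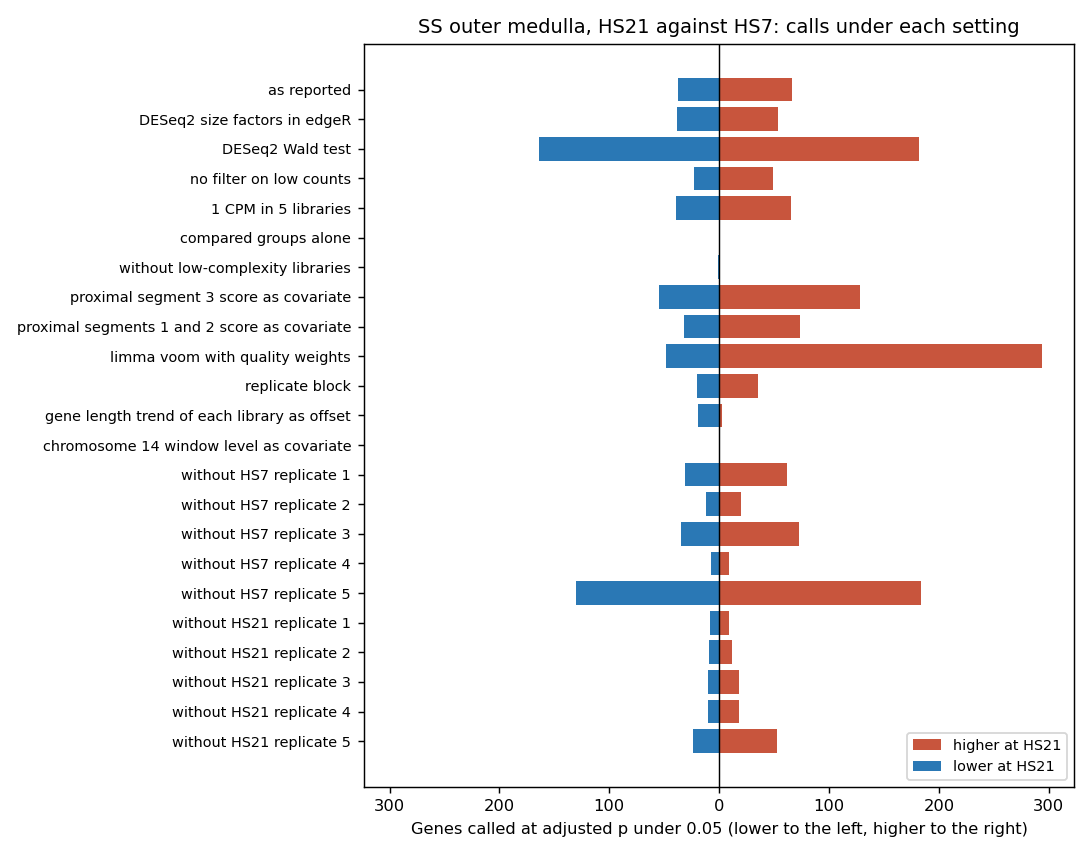
Bars give the number of genes called at an adjusted p under 0.05, lower at HS21 to the left and higher to the right, for the fit as reported and each alternative on the y axis. The fit as reported called 66 higher and 37 lower genes, DESeq2 182 and 164, and the fits of the compared groups alone and with the chromosome 14 window as covariate 0.

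Genes of protein synthesis stood among the firmest rises. Of 80 tested cytosolic ribosomal protein genes, 4 (5%) were called higher, among them Rps2, Rps16 and Rpl13a, and none lower. Over all tested genes 0.418% were called higher. Of the 80, 69 had a log2 difference above 0, and the median of the 80 was 0.31 against -0.00 for all genes. Rps2, a protein of the small ribosomal subunit (ENSRNOG00000014179, chromosome 10, 14088319 to 14089979), had 301, 288, 351, 322 and 377 CPM at HS7 and 789, 616, 554, 699 and 572 CPM at HS21. Every HS21 library lay above every HS7 library, replicate 5 of HS7 included. The means were 328 ± 36.1 and 646 ± 97.7 CPM (SD, n = 5), a 1.97-fold difference (log2 0.98, SE 0.14, adjusted p = 0.00113, edgeR). At LS the level was 300 ± 36.0 CPM.

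The promoters of Rps2, Rps16 and Rpl13a are in the RefSeq promoter table (build GRCr8) and are shown because these genes moved together. Ribosomal protein genes are known for messages that begin with a stretch of pyrimidines, through which translation is controlled. Each stretch holds 150 bases before the annotated start and 25 after it, read 5′ to 3′ on the gene's strand, with runs of at least 10 bases that are all C or T in capitals. They lie at chr10:14251698-14251872 (plus strand), chr1:92770508-92770682 (plus strand) and chr1:104748889-104749063 (minus strand).
Rps2: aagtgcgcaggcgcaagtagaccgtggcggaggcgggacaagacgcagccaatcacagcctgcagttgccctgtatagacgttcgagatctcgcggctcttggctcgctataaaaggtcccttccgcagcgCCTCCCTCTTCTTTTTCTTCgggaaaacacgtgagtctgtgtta
Rps16: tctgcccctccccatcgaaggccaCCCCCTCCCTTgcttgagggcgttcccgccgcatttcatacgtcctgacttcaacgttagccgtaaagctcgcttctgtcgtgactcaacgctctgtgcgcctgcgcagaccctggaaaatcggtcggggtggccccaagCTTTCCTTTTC
Rpl13a: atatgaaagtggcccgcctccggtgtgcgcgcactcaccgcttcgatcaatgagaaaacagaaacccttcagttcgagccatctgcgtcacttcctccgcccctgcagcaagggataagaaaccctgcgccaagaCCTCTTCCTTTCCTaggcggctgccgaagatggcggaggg
The run of Rps2 spans 20 bases and ends 1 base past the annotated start. That of Rpl13a spans 14 and ends 1 base before the start, outside the annotated message. The last run of Rps16 reaches the end of the printed stretch, 25 bases past the start, and may be cut there. A run of at least 10 such bases, on this strand and in the same stretch, occurred in 28.4% of all 33469 promoters of the table. It also occurred in 37 of the 54 promoters found for 53 of the tested ribosomal protein genes. This is a description of the sequence, and no binding or translation was measured.

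The values of Rps16 and Rpl13a follow those of Rps2 in direction. Rps16 had 477, 378, 471, 399 and 432 CPM at HS7 and 631, 620, 617, 656 and 645 CPM at HS21 (1.47-fold, log2 0.56, SE 0.11, adjusted p = 0.0147, edgeR). Rpl13a rose from 364 ± 33.3 to 558 ± 22.2 CPM (log2 0.61, SE 0.14, adjusted p = 0.0372). Neither gene overlapped between the groups. Several loci that resemble ribosomal protein genes and may share reads with them, named after their values were seen, rose too. The Rpl13a-like LOC100361061 had the smallest p of the comparison: 72.9, 53.4, 63.9, 59.7 and 98.4 CPM at HS7 against 160, 172, 147, 168 and 161 CPM at HS21 (log2 1.21, SE 0.15, adjusted p = 0.000252). The Rps12-like LOC100360573 went from 107 ± 32.9 to 221 ± 13.1 CPM (log2 1.04, adjusted p = 0.0084) and the Rpl32-like LOC688684 from 13.5 ± 6.17 to 33.5 ± 2.70 CPM (log2 1.3, adjusted p = 0.0127). The 73 tested mitochondrial ribosomal protein genes had no call and a median of -0.04, or 0.13 without HS7 replicate 3.

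Gene length moved with these results. The 66 genes called higher had a median length of 1409 bases and the 37 called lower 5055, against 2257 for all genes tested. Over quintiles of length from shortest to longest, the median log2 difference was 0.08, 0.03, -0.00, -0.01 and -0.08. In the shortest quintile 30 genes were called higher and 11 lower, and in the longest 2 and 24. With each library's trend over gene length as an offset, which moved the median of all genes to -0.11, 22 genes were called, 3 higher (13.6%) and 19 lower, in place of 66 (64.1%) and 37. Of the 103 genes 16 kept their call on that scale, the 3 higher ones being Rps2, LOC100361061 and Nenf (adjusted p = 0.0474, edgeR). There Rps2 was at 0.74 (adjusted p = 0.00989), LOC100361061 at 0.96 (adjusted p = 0.00040) and the median of the ribosomal proteins at 0.08, against -0.11 for all genes. Other genes named above lost their call: Rps16 was at 0.30 (adjusted p = 0.194), Rpl13a at 0.35 (0.212), LOC100360573 at 0.79 (0.0537) and LOC688684 at 1.05 (0.0562).

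**Figure D3:**
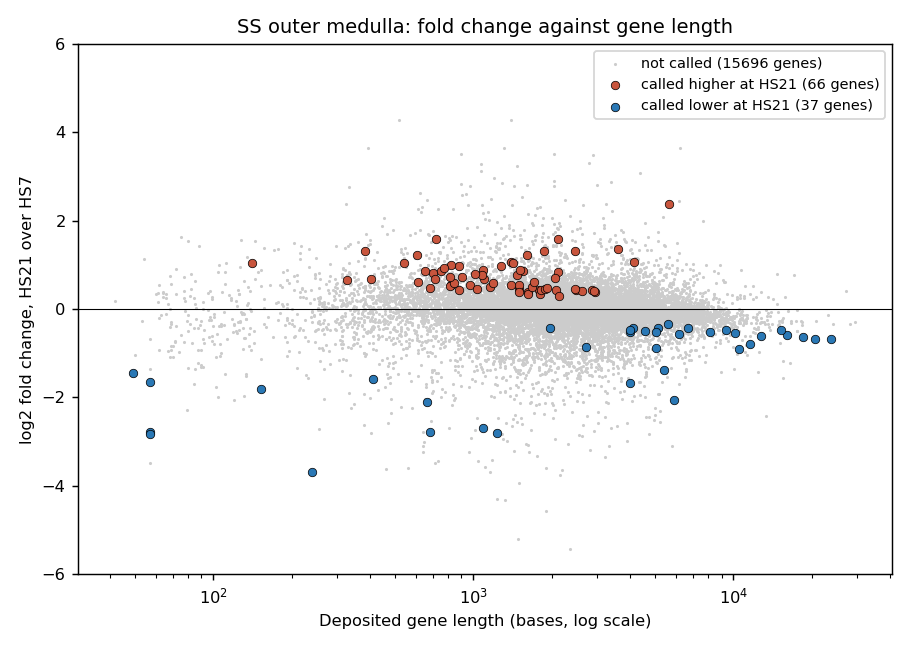
Each point is a tested gene, by deposited gene length on a log axis (x) and log2 fold change of HS21 over HS7 (y), with 1 gene outside the plotted range. Genes called higher (66) have a median length of 1409 bases and genes called lower (37) 5055, and 6 of the 11 genes called lower in the shortest quintile lie in the chromosome 14 window.

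Among genes with given symbols, 6 further ones kept their call without any 1 library, and 4 of them rose. Hnrnpa0, an RNA-binding protein of the nucleus, had 197, 166, 147, 147 and 236 CPM at HS7 and 299, 312, 313, 293 and 263 CPM at HS21 (1.66-fold, log2 0.73, SE 0.12, adjusted p = 0.00188, edgeR). Nenf, which encodes the secreted factor neudesin, had 17, 22.2, 21.7, 17.6 and 25.5 CPM at HS7 and 39.0, 40.4, 33.9, 38.8 and 36.8 CPM at HS21 (1.82-fold, log2 0.86, SE 0.14, adjusted p = 0.00188). In both genes every HS21 library was above every HS7 library, and the highest HS7 library was replicate 5. Tmem160, a small membrane protein, rose from 16.5 ± 4.84 to 33.0 ± 3.67 CPM (log2 1.00, SE 0.18, adjusted p = 0.00771), again with replicate 5 the highest at HS7 at 24.3 CPM. Tmed9, a cargo receptor of vesicles between the endoplasmic reticulum and the Golgi, rose from 77.7 ± 12.4 to 114 ± 5.75 CPM (log2 0.55, SE 0.10, adjusted p = 0.0056). The called genes Stx6 and Tmem258 were outside these 4. Stx6, a syntaxin of the Golgi, rose from 51.9 ± 5.80 to 71.1 ± 5.63 CPM (log2 0.45, adjusted p = 0.0194). It kept its call in 6 of the 10 fits without 1 library. Tmem258, a subunit of the enzyme that attaches N-linked sugars, rose from 10.05 ± 2.51 to 20.7 ± 0.787 CPM (log2 1.04, adjusted p = 0.030). With the gene length offset Hnrnpa0 was at 0.51 (adjusted p = 0.0788), Tmem160 at 0.77 (0.0537), Tmed9 at 0.39 (0.0813) and Stx6 at 0.36 (0.0917).

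Clu, which encodes the secreted chaperone clusterin and is a widely used marker of tubular injury, had 569, 675, 281, 434 and 593 CPM at HS7 and 1447, 1101, 1283, 1684 and 786 CPM at HS21. The groups did not overlap, and the lowest HS21 library was replicate 5. The difference was 2.47-fold (log2 1.3, SE 0.31, adjusted p = 0.0389, edgeR), with 333 ± 64.8 CPM at LS. Without HS7 replicate 3 it was 1.15 on the log2 scale with an adjusted p of 0.0825, and with the gene length offset 1.19 with 0.0917. Apoe, the lipoprotein component apolipoprotein E, named after its values were seen, had 617, 501, 388, 371 and 469 CPM at HS7 and 821, 883, 906, 1136 and 530 CPM at HS21 (log2 0.87, SE 0.20, adjusted p = 0.0372), and its groups overlapped through HS21 replicate 5. Without HS7 replicate 3 the adjusted p was 0.0708.

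Of 22 tested tubular growth factors and receptors none was called, 11 were above 0 and the median was 0.00. Mdk, the growth factor midkine, had 3.53, 3.87, 1.04, 3.70 and 4.45 CPM at HS7 and 8.66, 9.96, 9.35, 13.1 and 8.92 CPM at HS21. The groups did not overlap (3.00-fold, log2 1.59, SE 0.33, adjusted p = 0.023, edgeR), and without HS7 replicate 3, the lowest, the log2 difference was 1.36 (adjusted p = 0.0344). Cxcl14, a chemokine, had 6.54, 5.16, 5.57, 3.49 and 5.01 CPM at HS7 and 10.8, 11.5, 13.6, 14.5 and 10.02 CPM at HS21, without overlap (log2 1.23, SE 0.28, adjusted p = 0.0372). It was the 1 called member among 29 tested cytokine, chemokine and adhesion genes, against 0.652% called among all genes. Cdkn2b, an inhibitor of the cyclin-dependent kinases that drive G1, had 1.69, 3.22, 1.04, 0.356 and 2.95 CPM at HS7 and 11.5, 8.49, 10.8, 12.6 and 5.03 CPM at HS21. This was the largest rise among called genes (5.19-fold, log2 2.38, SE 0.55, adjusted p = 0.0372), and its adjusted p without HS7 replicate 3 was 0.0655. Phlda3, a p53 target that restrains Akt signalling, rose from 29.5 ± 11.7 to 60.6 ± 10.9 CPM (log2 1.03, adjusted p = 0.0263).

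Over the 29 tested injury and repair genes, Clu was the 1 called, against 0.652% called among all genes. In this list 27 had a log2 difference above 0 and the median was 0.46 (0.37 without HS7 replicate 3). The next 3 genes did not pass the test and were chosen after their values were seen. Havcr1, which encodes the injury marker KIM-1, had 21.4, 30.2, 36.0, 37.9 and 26.8 CPM at HS7 and 80.4, 36.0, 42.7, 96.9 and 72.0 CPM at HS21, with 6.44 ± 2.41 CPM at LS. HS21 replicates 2 and 3 lay near the HS7 libraries (log2 1.11, SE 0.45, adjusted p = 0.257). Lcn2, or NGAL, had 60.5 ± 24.1 and 103 ± 24.6 CPM (log2 0.77, SE 0.30, adjusted p = 0.235), and Spp1, osteopontin, 4739 ± 1582 and 7421 ± 1325 CPM (log2 0.65, SE 0.23, adjusted p = 0.203).

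Matrix genes lay mostly above 0 with 1 call. Eln, elastin of vessel walls and interstitium, had 84.2, 78.5, 63.9, 43.3 and 72.2 CPM at HS7, 169, 138, 189, 326 and 62.4 CPM at HS21 and 39.5 ± 3.96 CPM at LS. Replicate 5 at HS21 lay inside the HS7 range and the other 4 above it (2.59-fold, log2 1.37, SE 0.31, adjusted p = 0.0334, edgeR; 0.0551 without HS7 replicate 3). Of 31 tested matrix glycoproteins, elastic fibre and cross-linking genes, Eln was the 1 called, against 0.652% called among all genes. In this list 27 were above 0 and the median was 0.38. Of 22 tested collagens none was called, 21 were above 0 and 12 had an unadjusted p under 0.05 with a median of 0.63 (0.47 without HS7 replicate 3). Col8a1, a short-chain collagen of vessel walls, had 20.6, 19.8, 11.3, 12.9 and 16.2 CPM at HS7 and 50.8, 32.0, 45.6, 54.0 and 22.6 CPM at HS21. Its groups did not overlap, but it did not pass the test (log2 1.34, SE 0.38, adjusted p = 0.0981). Col18a1, the precursor of endostatin, had 598 ± 184 and 841 ± 93.8 CPM (log2 0.49, SE 0.15, adjusted p = 0.121).

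Called genes with the same direction outside these lists included Htra1, a secreted serine protease, at 48.1 ± 5.63 and 77.7 ± 19.6 CPM (log2 0.69, SE 0.17, adjusted p = 0.0417), and Cygb, a globin of fibroblasts and pericytes. Cygb had 176, 164, 77.2, 112 and 174 CPM at HS7 and 260, 243, 241, 309 and 211 CPM at HS21 (log2 0.84, SE 0.19, adjusted p = 0.0326, edgeR; 0.0528 without HS7 replicate 3). Both were named after their values were seen. Prkcdbp, or cavin-3 of caveolae, rose from 37.6 ± 11.5 to 73.5 ± 11.9 CPM (log2 0.96, adjusted p = 0.0301). Markers of stromal cells were higher in the same libraries: 7 of 8 fibroblast markers were above 0 (median 0.56) and 11 of 15 smooth muscle and pericyte markers (median 0.20, or 0.49 without HS7 replicate 3). The fibroblast marker score, a mean of log2 CPM, was 4.13 to 4.99 at HS7 and 4.58 to 5.50 at HS21. None of these markers was called, among them Dcn of fibroblasts at 311 ± 106 and 460 ± 82.3 CPM (adjusted p = 0.181) and Tagln of smooth muscle at 204 ± 53.1 and 380 ± 100 CPM (adjusted p = 0.0981). Their part in the matrix values was not tested. In bulk tissue, a change in the number of cells of a type and in RNA per cell cannot be told apart.

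**Figure D4:**
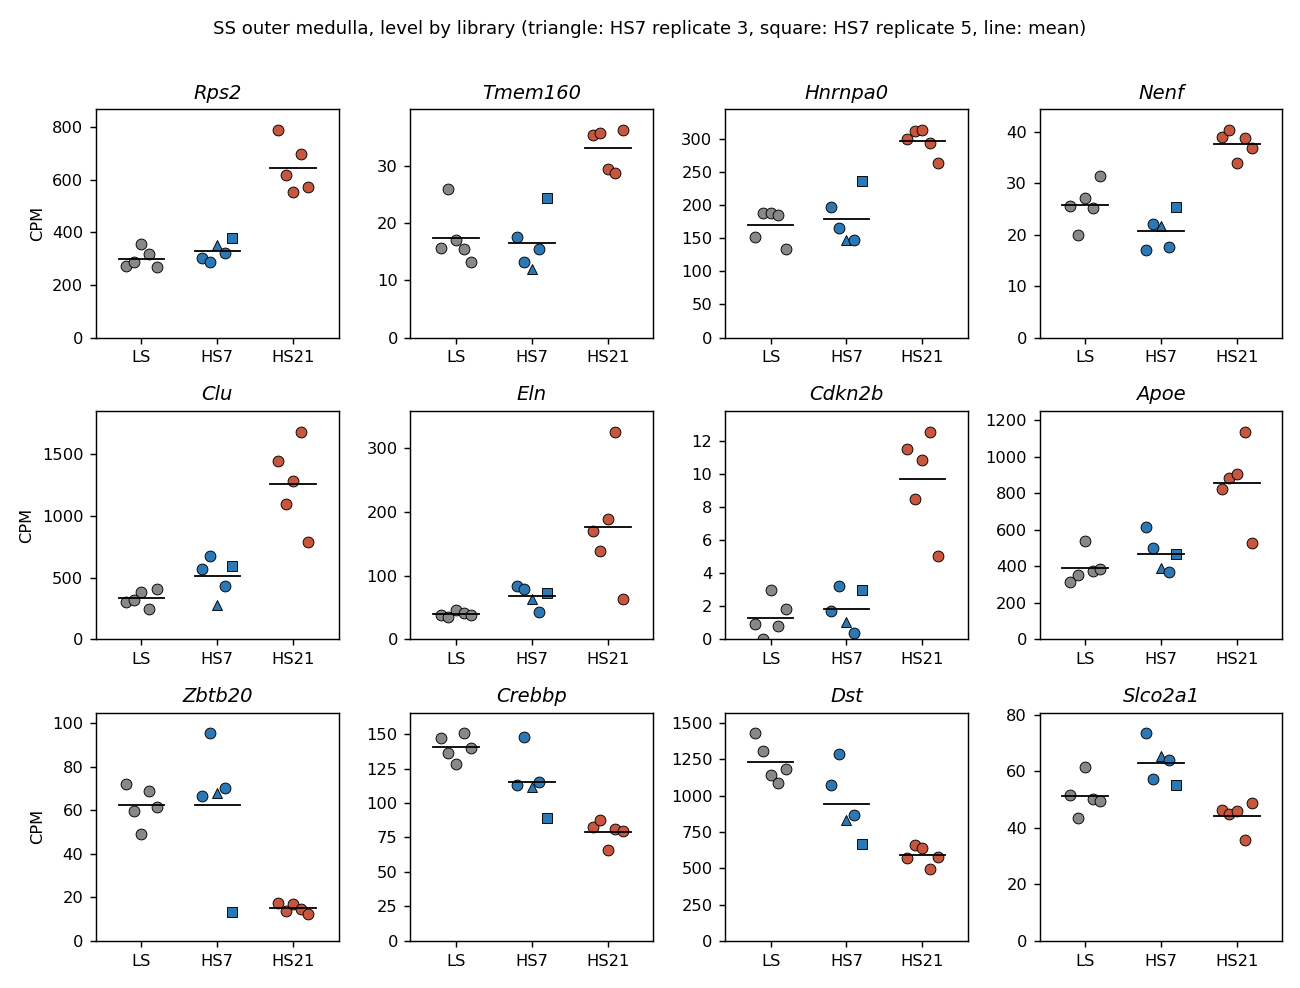
CPM (y axis from 0) of 12 genes in the 5 LS, 5 HS7 and 5 HS21 libraries of SS outer medulla (x axis), with lines at the means, a triangle for HS7 replicate 3 and a square for HS7 replicate 5. In Rps2, Clu and Cdkn2b all HS21 points lie above all HS7 points. In Zbtb20 the square, at 13.1 CPM, lies among the HS21 points.

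Pck2, Uqcrq and Sdc4 were each the 1 called member of a list, against 0.652% called among all genes. The list of Pck2 held 28 tested genes of glycolysis and gluconeogenesis, with a median of 0.02. That of Sdc4 held 17 tested genes of the osmolyte and tonicity response, with a median of -0.10. Pck2, the mitochondrial phosphoenolpyruvate carboxykinase, rose from 25.6 ± 2.51 to 35.9 ± 0.948 CPM (log2 0.49, SE 0.10, adjusted p = 0.0219, edgeR), while Pck1, the cytosolic form of the proximal tubule, chosen after its values were seen, was at 561 ± 854 and 76.4 ± 67.7 CPM (log2 -2.88, adjusted p = 0.125, and -1.33 without HS7 replicate 3). Uqcrq, a subunit of respiratory complex III, rose from 132 ± 18.4 to 193 ± 25 CPM (log2 0.55, SE 0.13, adjusted p = 0.0373), the 1 called gene of 38 nuclear genes of complexes II to V, whose median was -0.05. Sdc4, the cell-surface proteoglycan syndecan 4, had 406, 407, 404, 320 and 413 CPM at HS7 and 533, 544, 528, 494 and 538 CPM at HS21, without overlap (log2 0.44, SE 0.09, adjusted p = 0.0172). Its LS level was 480 ± 40.4 CPM. Outside the lists, the surface proteins RT1-CE16, a class I histocompatibility gene of a family with near-identical copies, and Cd99 rose by 0.88 (SE 0.17, adjusted p = 0.017) and 0.81 (SE 0.16, adjusted p = 0.0187) on the log2 scale.

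Of the 37 genes called lower, 24 lay in the longest quintile of gene length and 11 in the shortest. Among those with a given symbol and a mean of at least 5 CPM, Zbtb20 had the lowest log2 difference. Zbtb20, a zinc-finger repressor (ENSRNOG00000056716, chromosome 11, 62014925 to 62451184), had 66.5, 95.2, 67.7, 70.2 and 13.1 CPM at HS7 and 17.6, 13.7, 17, 14.5 and 12.2 CPM at HS21. Its log2 difference was -2.06 (SE 0.37, adjusted p = 0.0084, edgeR) and -0.95 (adjusted p = 1) with the chromosome 14 window as covariate. Over all libraries Zbtb20 followed the split described above, with 62.3 ± 8.94 CPM in SS LS and 14.7 to 16.7 CPM as group means in NOX4 outer medulla. In the window itself, 9 of 22 deposited genes were tested and 9 of 9 were below 0. Of the 9, 6 were called lower, against 0.234% of all tested genes. The edges of the window were set by genes called lower, so these counts are descriptions. The 6 called genes carry clone names, among them the unnamed coding genes AABR07015057.1 and AABR07015081.2, and are given after their values were seen. AABR07015057.1 had 714, 606, 650, 691 and 71.6 CPM at HS7 and 96.0, 81.1, 36.1, 139 and 68.7 CPM at HS21 (log2 -2.70, SE 0.43, adjusted p = 0.00188). As with Zbtb20, HS7 replicate 5 lay inside the HS21 range.

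Crebbp, a histone acetyltransferase and coactivator, was the other named gene that stayed called lower in every fit without 1 library. It had 113, 148, 112, 115 and 88.9 CPM at HS7, 82.4, 87.5, 65.7, 81.2 and 79.6 CPM at HS21 and 140 ± 8.80 CPM at LS. Every HS21 library was below every HS7 library, replicate 5 of HS7 by the narrowest margin (log2 -0.54, SE 0.10, adjusted p = 0.0084, edgeR). Dst, a giant linker of the cytoskeleton, had 1072, 1288, 835, 865 and 665 CPM at HS7 and 573, 661, 642, 494 and 580 CPM at HS21 (log2 -0.68, SE 0.14, adjusted p = 0.0196). Syne2, which ties the nucleus to actin, fell from 804 ± 202 to 500 ± 29.3 CPM (log2 -0.69, adjusted p = 0.017), Ubr4, a ubiquitin ligase, from 430 ± 82.5 to 285 ± 16.7 CPM (log2 -0.59, adjusted p = 0.017) and Srrm2, a splicing factor, from 619 ± 78 to 431 ± 23.7 CPM (log2 -0.52, adjusted p = 0.0196). With the gene length offset these 5 lost their call, at -0.44 for Crebbp (adjusted p = 0.0917), -0.38 for Dst (0.133), -0.46 for Syne2 (0.165), -0.39 for Ubr4 (0.133) and -0.47 for Srrm2 (0.0972). In Syne2 and Ubr4 replicate 5 of HS7, at 505 and 297 CPM, lay inside the HS21 range. Over the 37 genes called lower that library lay inside the HS21 range for 22, over the 66 called higher for 6, and over all tested genes for 70.4%. That library entered the choice of the called genes, so these counts are descriptions.

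Slco2a1, the transporter that clears prostaglandins, also fell. It had 73.5, 57.2, 65.3, 64.2 and 55.3 CPM at HS7, 46.3, 44.8, 45.9, 35.7 and 48.9 CPM at HS21 and 51.3 ± 6.50 CPM at LS. The HS7 and HS21 groups did not overlap, and replicate 5 of HS7 was above every HS21 library (log2 -0.51, SE 0.12, adjusted p = 0.0372, edgeR; 0.0578 without HS7 replicate 3 and 0.0537 with the gene length offset). It was the 1 called gene of 26 tested genes of prostaglandin and arachidonic acid metabolism, whose median was -0.09. Over all tested genes 0.652% were called.

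Lists of transport and energy genes had few calls, and several medians rested on HS7 replicate 3. Of 13 early proximal tubule markers none was called and 12 were below 0, with a median of -1.54 that became -0.17 without that library. Slc22a8, an organic anion transporter of the proximal tubule, had 3.97, 1.61, 301, 18.6 and 5.56 CPM at HS7 and 1.24, 0.282, 1.65, 10.2 and 11.1 CPM at HS21. The same held for amino acid and creatine metabolism, with a median of -0.69 over 35 genes that became -0.14. None of the 15 thick ascending limb markers was called (median -0.01, or -0.20 without HS7 replicate 3). Slc12a1 was at 3850 ± 1420 and 3666 ± 540 CPM (log2 -0.07, SE 0.22, adjusted p = 0.911), with 5721 ± 334 CPM at LS. Of 36 sodium, potassium and chloride transport genes none was called, and the smallest p belonged to Kcnj16, a basolateral potassium channel, at 260 ± 59.8 and 186 ± 16.9 CPM (log2 -0.48, SE 0.14, adjusted p = 0.115).

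**Figure D5:**
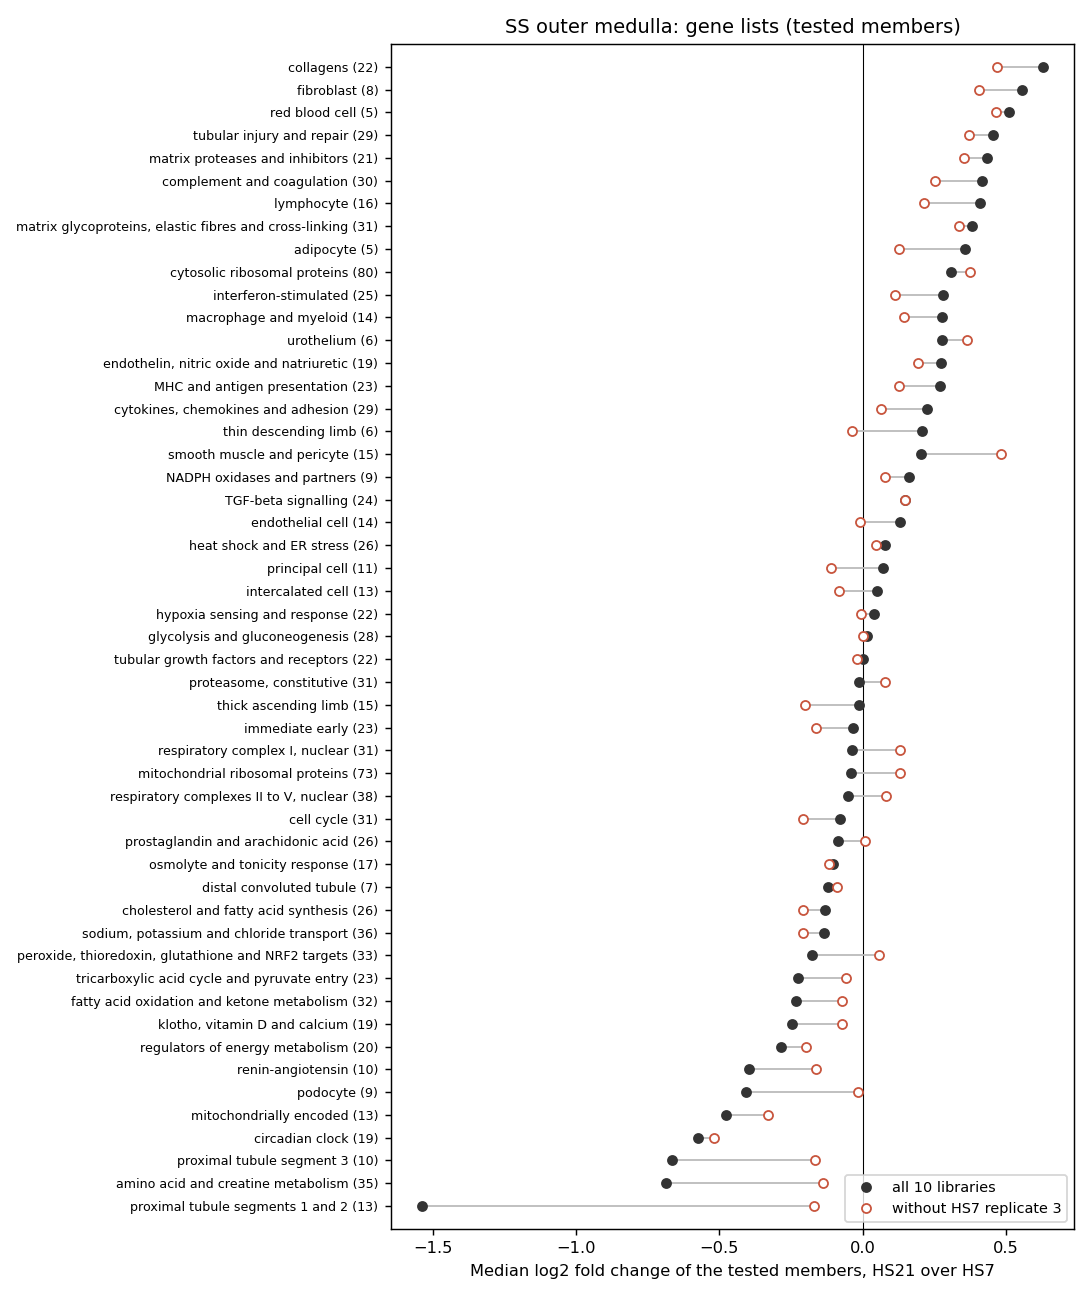
Filled points give the median log2 fold change of HS21 over HS7 (x axis) of the tested members of each gene list with at least 5 of them (y axis, number tested in brackets), and open points the median without HS7 replicate 3. The collagens keep a median of 0.47 and the clock genes of -0.52 without that library, while the early proximal tubule markers move from -1.54 to -0.17.

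Mitochondrial transcripts were lower at HS21. Genes encoded by the mitochondrial genome took 9.06%, 10.9%, 13.5%, 13.3% and 10.9% of counts in HS7 replicates 1 to 5 and 9.0%, 9.53%, 8.16%, 8.75% and 10.1% at HS21. The difference of the means was -2.40 percentage points (exact permutation p = 0.0238, 2-sided, n = 5 and 5). HS7 replicate 1 lay inside the HS21 range. Without HS21 replicate 1, 3 or 4 the exact permutation p was 0.0635. Of the 13 mitochondrially encoded proteins none was called and 13 were below 0, each with an unadjusted p under 0.05, with a median of -0.48 (-0.33 without HS7 replicate 3). The 2 highest shares were those of HS7 replicates 3 and 4, which also had the highest proximal tubule scores (8.05 and 7.5 for the straight segment, against 4.97 to 7.37 in the others). The part of tubule composition in the mitochondrial share was not tested.

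The circadian clock list was among the lowest medians (-0.58 over 19 genes, 16 below 0, none called). Per2, a repressor of the clock loop, had 44.9, 63.7, 88.6, 99.4 and 76.2 CPM at HS7 and 25, 32.6, 33.0, 25.7 and 56.4 CPM at HS21, with the groups overlapping through replicate 5 of HS21 (log2 -1.11, SE 0.39, adjusted p = 0.188, edgeR). Per3 and Arntl were chosen after their values were seen. Per3 was at 66.9 ± 24.9 and 30.8 ± 9.13 CPM (log2 -1.12, SE 0.41, adjusted p = 0.211). Arntl, the activator of the loop, lay the other way, at 11 ± 7.47 and 24.4 ± 9.49 CPM (log2 1.15, SE 0.60, adjusted p = 0.383). The labels give no time of day for tissue collection, and its part was not tested.

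Immune and vascular lists lay above 0 with few or no calls. Of 14 macrophage and myeloid markers 14 were above 0 and none was called (median 0.28, or 0.14 without HS7 replicate 3). C1qa, a chain of complement C1q made by macrophages, had 106, 82.3, 49.2, 85.5 and 139 CPM at HS7 and 161, 172, 157, 182 and 94.3 CPM at HS21 (log2 0.73, SE 0.26, adjusted p = 0.197, edgeR), with the groups overlapping through replicate 5 of HS21. Of 25 interferon-stimulated genes 24 were above 0 (median 0.28, or 0.11 without HS7 replicate 3), and of 23 genes of antigen presentation 21 (median 0.27, or 0.13), none called. Tap2, a subunit of the peptide transporter for class I molecules, was at 16.3 ± 7.96 and 31.2 ± 4.47 CPM (log2 0.93, SE 0.25, adjusted p = 0.0798). Of 19 genes of endothelin, nitric oxide and natriuretic signalling 15 were above 0 and none was called (median 0.28). Gucy1a3, a subunit of the nitric oxide receptor of smooth muscle, was at 46.0 ± 12.5 and 79.9 ± 26.2 CPM (log2 0.80, SE 0.25, adjusted p = 0.128). Egf, a growth factor of the thick ascending limb and distal tubule, lay the other way: 271, 262, 162, 235 and 260 CPM at HS7 and 160, 155, 144, 116 and 190 CPM at HS21, with 343 ± 56.2 CPM at LS (log2 -0.64, SE 0.23, adjusted p = 0.205). Among HS7 libraries only replicate 3 lay inside the HS21 range for Egf.

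The called genes were also placed against the other outer medulla groups. The LS mean was nearer to the HS7 mean than to the HS21 mean for 61 of the 66 genes called higher and 33 of the 37 called lower, against 52.5% of all tested genes. LS replicates 2, 3 and 5 were also low in complexity, with 14863, 15284 and 14582 genes at 10 M counts, and the part of complexity in these counts was not tested. The means of the 3 NOX4 groups were all nearer to SS HS21 than to SS HS7 for 45 of the 66 and 27 of the 37, against 31.3% of all tested genes. The HS7 mean entered the choice of these genes, so the counts are descriptions.

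In NOX4 outer medulla, which shares no library with the SS comparison, HS21 against HS7 gave 0 calls in edgeR and 1338 genes at an unadjusted p under 0.05. Of the 103 SS genes, 60 had the same sign there, and the share with the same sign over all tested genes was not counted. The difference between the strains in this contrast was called for 2 of 15799 genes (0.0127%), with 2114 at an unadjusted p under 0.05. These were Rps2 (1.12, SE 0.20, adjusted p = 0.0331) and LOC100361061 (1.27, SE 0.22, adjusted p = 0.0331). In NOX4, Rps2 had 631 ± 148 CPM at HS7 and 570 ± 62.8 CPM at HS21, and LOC100361061 162 ± 45.3 and 156 ± 11.5 CPM, so that both NOX4 groups lay near the SS HS21 level. Neither was called with the window as covariate or with DESeq2 size factors. Clu was at 334 ± 148 and 405 ± 238 CPM in NOX4, with a strain difference of 1.03 (SE 0.43, adjusted p = 0.32). Eln was at 43.6 ± 7.96 and 40.7 ± 22.2 CPM, with a strain difference of 1.47 (SE 0.43, adjusted p = 0.207).

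The SS contrast was also set against that of SS cortex. The difference between the tissues was called for 0 of 16326 genes (0%) in edgeR, with 830 at an unadjusted p under 0.05 and 6 called by DESeq2. Among named genes of the outer medulla, Stx6 had 1 of the 4 smallest p-values (log2 difference of 0.56 between tissues, SE 0.13, adjusted p = 0.387). The rises of Rps2 and Clu were larger in outer medulla by 0.38 (SE 0.19, adjusted p = 0.945) and 0.57 on the log2 scale (adjusted p = 0.945), neither passing the test. For Zbtb20 the tissues differed by -0.02 (adjusted p = 0.999), and SS cortex at HS21 held 11.1 to 22.1 CPM of the library total.

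In the authors' deposited table for the same 2 groups, 342 of 21203 genes with an adjusted p were under 0.05, 176 higher and 166 lower at HS21. Of the 103 genes called here, 85 were among them in the authors' deposited table.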

How the data were processed

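RNA from snap-frozen tissue was sequenced as poly(A) libraries, per the labels' protocols. Per the submitters' processing notes the authors used HISAT2 2.0.5, StringTie 1.3.3b and featureCounts 1.5.0-p3. The deposited table holds, per the file headers, raw counts and FPKM for 32545 genes in 60 libraries, and a log2 fold change, p-value and adjusted p-value for 18 comparisons. The deposited group means of normalized counts, a signal whose scaling by the authors is not stated, were not used in any test. The build, strandedness and the tool of the deposited tests are not given in the sources used here.

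Tests on raw counts used edgeR 4.0.16 under R 4.3.3: filterByExpr by group, TMM, 1 coefficient for each of the 6 outer medulla groups (30 libraries), quasi-likelihood F test, and Benjamini-Hochberg adjustment over all genes. The tissue contrast used all 60 libraries. CPM includes the TMM factor unless given of the library total. SE is the log2 difference over the square root of F. Scores used log2 CPM with a prior count of 2. Single values were compared by an exact permutation test over 252 splits. The procedure was tested on simulated counts, where 14 of 15502 unchanged genes were called. It called 13 of 67 genes with a true 1.5-fold change, 34 of 66 with 2-fold and 55 of 66 with 4-fold. The simulated counts did not include the split of libraries. Alternatives used DESeq2 1.42.0 and limma 3.58.1. Reads carry no molecular identifiers, so counts also hold amplified copies.

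The comparison and the 51 gene lists (1206 of 1235 entries matched) were chosen with earlier results of these data known. The rule for naming genes took Nox4, and the 15 highest and 15 lowest log2 differences and 10 smallest p-values among called genes. Those called genes needed a given symbol and a mean of at least 5 CPM. The rule also took the 4 smallest p-values of each contrast between strains or tissues. From each list it took up to 5 called members or the 2 smallest p-values. Not every gene under the rule is named in the text. Of the 15 lowest, Dgkh, Wdfy3, Ttll10, Fras1, Prkag1, Hectd4 and Helz are left out. So are Pdlim1 of the smallest p-values and Usf1 of the contrast between strains. Genes outside this rule are said to be chosen after their values were seen. 1 called ribosomal protein gene is not reported here.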

Additional observations from a re-analysis of the deposited data

Results flagged for a closer look

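In groups of 5 libraries, a library whose gap to its neighbour took over 0.71 of the group's range was singled out. Over 110 groups tested this gave 9 cases, and chance gives about 1 in 20. HS7 replicate 3 was lowest for the thin descending limb score (4.12, next 6.29), the principal cell score (4.66, next 6.10), the macrophage and myeloid score (4.76, next 5.88), all means of log2 CPM, and Mdk (1.04 CPM, next 3.53). HS7 replicate 5 was highest for Tmem258 (14.5 CPM, next 9.58) and lowest for Baz2a (56.4 CPM, next 83.6). HS21 replicate 5 was lowest for the macrophage and myeloid score (5.54, next 6.28) and Phlda3 (41.8 CPM, next 61.1), and highest for the red blood cell score (5.43, next 4.48).

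The change from HS7 to HS21 differed between SS and NOX4 outer medulla for Rps2 by 1.12 and for LOC100361061 by 1.27 on the log2 scale, with an adjusted p of 0.0331 for each in edgeR's interaction test. In SS the levels rose in both genes, and 5 of 5 HS21 libraries lay above the HS7 mean.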

How the results depend on the processing

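For HS21 against HS7 in SS outer medulla the 103 calls became 346 with DESeq2's Wald test, 342 with limma voom quality weights, 183 with the proximal segment 3 score as covariate, 22 with the gene length offset, 1 without low-complexity libraries and 0 with the compared groups alone or the chromosome 14 window covariate; leaving out 1 library gave 16 to 314. The gene length offset and the window covariate were chosen after seeing the data. With DESeq2's size factors the called genes split 54 higher to 38 lower, with DESeq2's Wald test 182 to 164 and with voom 294 to 48. The 2 calls for the strain difference became 73 with DESeq2's Wald test and 0 with DESeq2's size factors, the compared groups alone, voom, the gene length offset, the window covariate or without low-complexity libraries, and 0 to 40 without 1 library (40 without SS HS7 replicate 5, 27 without NOX4 HS7 replicate 5). The tissue difference, 0 calls, had 6 with DESeq2 and 2 with voom, and 0 without any 1 library. The mitochondrial share differed by -3.02 to -1.92 percentage points without 1 library, and by -2.37, -2.16 and -2.31 without HS21 replicate 1, 3 or 4, where the exact permutation p was 0.0635. Genes at 10 M counts differed by 1370 (exact permutation p = 0.167), by 932 to 1801 without 1 library, and reversed to -226 (p = 0.0476) without low-complexity libraries. The cause was not tested.

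With the replicate number as a replicate block, 55 genes were called in the main comparison and 0 in the strain difference. Same-numbered HS7 and HS21 libraries did not deviate together (correlations 0.16, 0.44, -0.36, 0.12 and -0.20, and 1 of 5 correlated best with its own number), so the numbers were not taken as pairs. Depth limits the low genes: HS7 libraries held as few as 11.5 M counts.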
